A study of Mus musculus with 5 samples.

Results

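DNA methylation was compared between mouse embryonic stem (ES) cells without Ezh2 and ES cells without Eed, 2 mutants of Polycomb repressive complex 2 (PRC2). The unit of comparison was the 1-kb window of mouse build mm9, and a window was a member when it held at least 5 CpGs and at least 30 reads in both libraries. CpGs inside CCGG, the site cut to make the libraries, were left out. These minimums were met by 7594 windows, of 22601 that met them in at least 1 of the 5 libraries of the series. Ezh2 -/- alone had 8553 such windows and Eed -/- alone had 9154.

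PRC2 places methyl groups on lysine 27 of histone H3, a mark of silenced developmental genes in ES cells. EZH2 is its catalytic subunit, and EED is a core subunit that binds the methylated histone tail and stimulates the enzyme. EZH1, a paralogue of EZH2, can also form the complex with EED, so loss of Eed removes both forms of the complex and loss of Ezh2 removes one of them. DNA methylation is a separate mark, and Polycomb-bound CpG islands usually lack it.

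The series used reduced representation bisulfite sequencing (RRBS), in which MspI fragments rich in CpG are sequenced after bisulfite has converted the unmethylated cytosines. The methylation level of a window is the percentage of its reads at CpGs that still show a cytosine. There was 1 library per genotype, and besides Ezh2 -/- and Eed -/- the labels name Ring1B -/-, Fbxl10 T/T and WT. Ring1B is the enzyme of Polycomb repressive complex 1 that attaches ubiquitin to histone H2A, and FBXL10 binds CpG-rich DNA that is unmethylated.

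Eed -/- and Ezh2 -/- ES cells, like Ring1B -/-, were described as grown in serum with LIF, with no strain, passage or clone in the labels. WT and Fbxl10 T/T cells carried the strain label C57BL/6J and were grown in serum on feeder fibroblasts that were depleted before use, to passage 17. WT is therefore not a matched parent of either PRC2 mutant, and its levels are given below only as a further library. The tables hold no value that checks either deletion. With 1 library each, genotype, cell line and culture cannot be told apart, and each Fisher's exact test below is a test between the reads of 2 libraries, never between genotypes. A read that covers several CpGs counts at each of them, so reads of a window are not independent and the p-values are too small. Intervals are 95% Wilson intervals for a level and Newcombe intervals for a difference, and they cover counting error only.

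Stretches of sequence from called windows are shown first, for each window the longest stretch with a CpG read in both libraries that could be spelled. Capitals mark CpGs outside CCGG that were read in both libraries. The first set is spelled by the sequence contexts of the deposited tables in mm9, on the plus strand, and holds 3 stretches of windows near imprinted genes that were lower in Ezh2 -/-. They came from the window with the Plagl1 start (chr10:12810790-12810875), a window 11.4 kb downstream of the nearest placed Grb10 start (chr11:11925841-11925892) and a window 29.5 kb upstream of the nearest placed Gnas start (chr2:174125152-174125192).
Plagl1: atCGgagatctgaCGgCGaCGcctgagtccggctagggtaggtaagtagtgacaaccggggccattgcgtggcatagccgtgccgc
Grb10: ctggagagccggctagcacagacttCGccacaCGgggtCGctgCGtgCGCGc
Gnas: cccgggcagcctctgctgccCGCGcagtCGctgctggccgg

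The second set holds stretches in which nearly all methylated reads came from Eed -/-, from the window nearest to Polrmt (chr10:79198172-79198233) and from a repetitive stretch on chromosome 4 with no placed start within 50 kb (chr4:108453214-108453245).
Polrmt: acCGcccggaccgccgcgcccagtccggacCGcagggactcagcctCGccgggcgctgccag
Chromosome 4: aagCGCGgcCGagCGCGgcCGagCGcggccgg

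The last set holds 2 promoters from RefSeq (GRCm38.p6, 250 bases before to 50 after the start), one for each direction. Clcn4 (chr7:7299508-7299807, minus strand) had the smallest p of the windows lower in Ezh2 -/-, and Tmem267 (chr13:119488223-119488522, plus strand) that of the windows higher in Ezh2 -/-.
Clcn4: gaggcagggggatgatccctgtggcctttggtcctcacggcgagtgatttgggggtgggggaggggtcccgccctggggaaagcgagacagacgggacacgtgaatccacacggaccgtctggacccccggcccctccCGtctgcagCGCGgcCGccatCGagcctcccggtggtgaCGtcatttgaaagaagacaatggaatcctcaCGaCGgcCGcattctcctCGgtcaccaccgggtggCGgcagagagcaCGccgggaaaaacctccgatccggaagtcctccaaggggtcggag
Tmem267: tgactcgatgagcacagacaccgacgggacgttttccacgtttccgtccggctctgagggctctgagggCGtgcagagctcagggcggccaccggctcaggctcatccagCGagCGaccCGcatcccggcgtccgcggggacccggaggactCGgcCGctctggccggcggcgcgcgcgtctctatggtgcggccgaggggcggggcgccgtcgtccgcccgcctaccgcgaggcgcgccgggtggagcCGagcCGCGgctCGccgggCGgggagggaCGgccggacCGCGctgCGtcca

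Both libraries were low in most windows. Both were under 10% methylated in 6815 windows (89.7%), and both were at 0% in 1070. The summed level was 3.63% in Eed -/- (3.59 to 3.68%, 725547 reads) and 3.03% in Ezh2 -/- (2.98 to 3.07%, 654112 reads). The mean window level was 3.58% (SD 6.10 over windows) in Eed -/- and 3.29% (SD 5.69) in Ezh2 -/-. The difference, Ezh2 -/- minus Eed -/-, had a mean of -0.281 points (SD 5.11) and a median of 0. It was below 0 in 3509 windows, above 0 in 3003 and 0 in 1082. The median window held 74 reads in Eed -/- and 66 in Ezh2 -/-, over 17 CpGs in each.

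A small gap in the same direction was present at cytosines outside CpG, where ES cells carry little methylation and unconverted cytosines also read as methylated. These read 2.83% in Eed -/- and 2.10% in Ezh2 -/-, against 2.62% in Ring1B -/-, 1.02% in WT and 0.688% in Fbxl10 T/T. Its part in the gap of the summed CpG level was not tested.

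A call needed a difference of 20 percentage points or more together with a Benjamini-Hochberg adjusted p below 0.05, taken over all windows, in Fisher's exact test. In all, 26 windows were called, which is 0.342% of those tested. Of these, 20 were lower in Ezh2 -/- (0.263%) and 6 were higher (0.079%). A further 28 windows passed the adjusted p with a smaller difference, 17 lower and 11 higher in Ezh2 -/-. At an unadjusted p under 0.05 there were 694 windows.

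Windows that were not called are not shown to be equal. Among the 7568 of them, 35 differed by 20 points or more, 18 lower and 17 higher in Ezh2 -/-. The interval of the difference lay inside 20 points on either side for 6995 (92.4%), and inside 10 points for 3829 (50.6%). The window just under the size threshold was a second Grb10 window, at 19.96 points, and the called window just over it was that of B3glct, at 20.5 points.

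**Figure D1:**
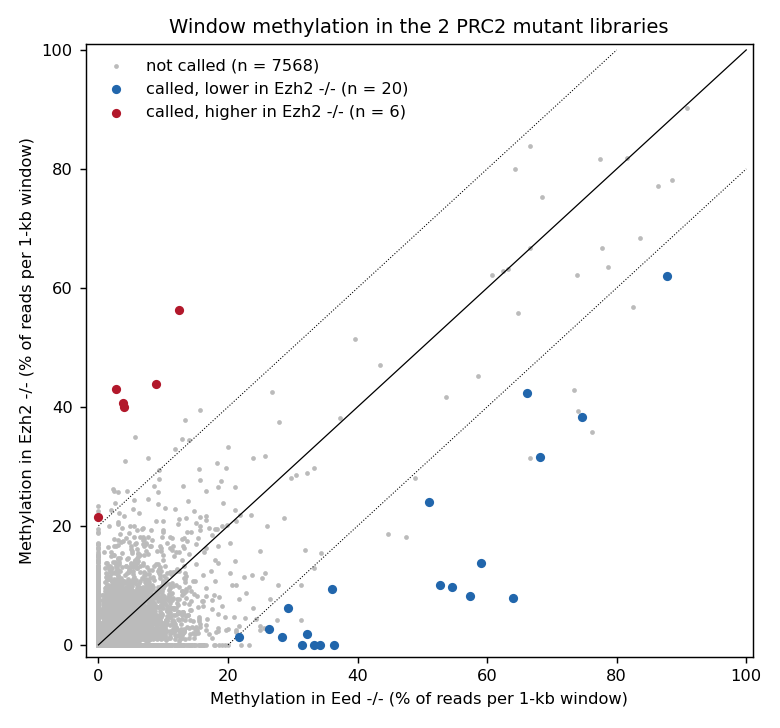
Methylation level (% of reads) of each of the 7594 windows in Eed -/- (x axis) and Ezh2 -/- (y axis); the solid line marks equal levels and the dotted lines a difference of 20 points. Most windows lie near the origin, and the 20 called windows lower in Ezh2 -/- (blue) outnumber the 6 called higher (red).

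The share of windows called was higher where WT was methylated. Of the 7286 windows under 10% in WT, 9 were called lower and 1 higher in Ezh2 -/- (0.137%). Of the 237 windows at 10 to 30% in WT, 1 was lower and 3 were higher (1.69%). Of the 46 windows at 30 to 70%, 8 were lower and 2 were higher (21.7%). Of the 24 windows at 70% or more, 2 were lower and none was higher (8.33%). These shares partly follow from the size threshold, since a called window had to reach 20% in at least 1 mutant. Over all windows, 100 did so in Eed -/- and 112 in Ezh2 -/-. The class under 10% in WT had mean levels of 3.05% and 2.71% in these mutants, so most of its windows had little room for a call.

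Mean levels by class were as follows. At 70% or more in WT, the mean level was 67.8% (SD 17.7) in Eed -/- and 55.8% (SD 24.2) in Ezh2 -/-, and 69.1% in Ring1B -/-. At 30 to 70%, it was 28.9% (SD 21.8) in Eed -/-, 24.0% (SD 17.9) in Ezh2 -/- and 43.7% in Ring1B -/-, with 24 windows lower and 21 higher in Ezh2 -/-. At 10 to 30%, Ezh2 -/- was the higher of the 2, with a mean of 11.6% (SD 9.32) against 8.03% (SD 8.46) in Eed -/-, and 154 windows were higher against 76 lower. On summed reads this class did not differ in that way, at 11.6% in Eed -/- and 11.5% in Ezh2 -/-. Both PRC2 mutants were below the WT mean in each of these 3 classes, which was 85.2%, 43.1% and 14.9%, but it was the WT level that set the classes.

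**Figure D2:**
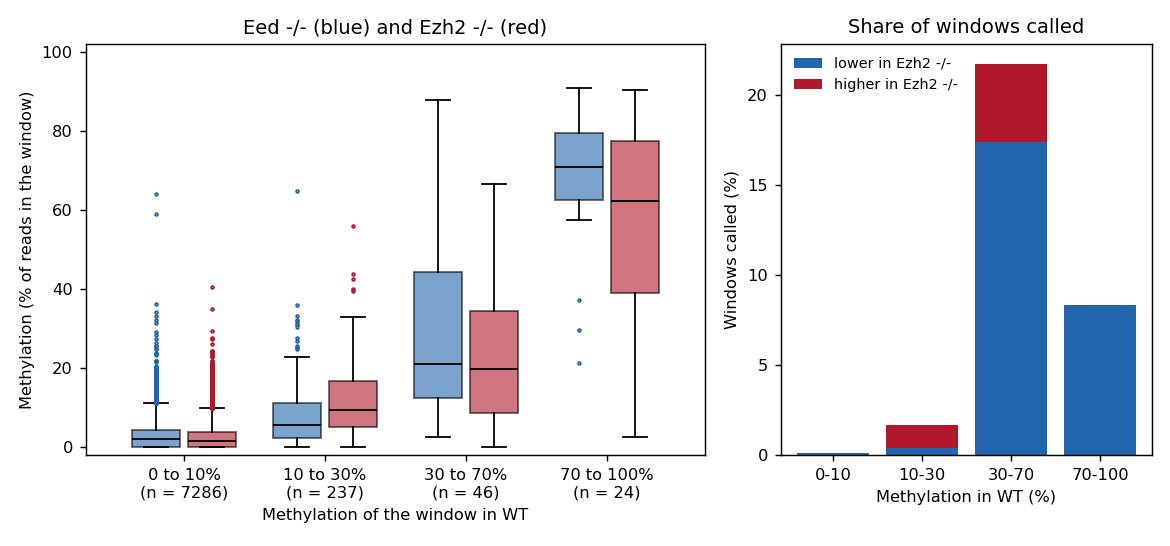
Left, window levels (% of reads) in Eed -/- (blue) and Ezh2 -/- (red) by the level of the window in WT; boxes are quartiles with the median, whiskers reach 1.5 times the box and points lie beyond. Right, the percentage of windows called in each class, highest (21.7%) at 30 to 70% in WT.

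Classes by the level in Ring1B -/-, which shares the culture label of both mutants, were chosen after the data were seen and gave the same order up to the last class. The share called was 0.0773% under 10%, 1.37% at 10 to 30%, 10.8% at 30 to 70% and 13.6% at 70% or more. The size threshold limits these shares in the same way. Windows that held a placed gene start were called in 0.198% of 3544, and windows without one in 0.469% of 4050.

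Among the imprinted genes, which carry methylation on a single parental allele, the window with the Plagl1 start was called. Plagl1 encodes a zinc finger transcription factor expressed from the paternal allele. In Eed -/- 13 of 38 reads were methylated (34.2%, 21.2 to 50.1%), and in Ezh2 -/- 0 of 43 (0%, up to 8.20%). The adjusted p was 0.00476 (Fisher's exact test). WT read 37.7%, Ring1B -/- 41.5% and Fbxl10 T/T 79.7%. Ezh2 -/- was thus the lowest of the 5 libraries here. The 4 CpGs in capitals in its sequence carried 12 of the 13 methylated reads of Eed -/-, with 6 reads at each CpG, against 7 unmethylated reads at each in Ezh2 -/-. Few DNA molecules therefore stand behind this window.

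The Grb10 window was named after its values were seen, since its placed start is 11.4 kb away. Grb10 encodes an adaptor protein that restrains growth signalling. The level was 25 of 95 reads in Eed -/- (26.3%, 18.5 to 36.0%) and 2 of 77 in Ezh2 -/- (2.60%, 0.715 to 8.98%). The adjusted p was 0.00386 (Fisher's exact test). WT read 38.9%, Ring1B -/- 29.6% and Fbxl10 T/T 74.7%. The next window along the chromosome read 24.2% in Eed -/- and 4.28% in Ezh2 -/-, and the windows with the Grb10 starts themselves read 5% or less in Eed -/- and 9% or less in Ezh2 -/-. In the stretch printed above, the level was 6 of 38 reads in Eed -/- and 1 of 24 in Ezh2 -/-, and 4 CpGs outside it held 4 methylated reads each in Eed -/- and 0 in Ezh2 -/-.

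The Gnas window lies 29.5 kb upstream of the nearest placed start of Gnas, which encodes the stimulatory G protein alpha subunit and sits in an imprinted cluster. In Eed -/- 29 of 55 reads were methylated (52.7%, 39.8 to 65.3%), and in Ezh2 -/- 3 of 30 (10%, 3.46 to 25.6%). The adjusted p was 0.0209 (Fisher's exact test). WT read 45.6%, Fbxl10 T/T 79.8% and Ring1B -/- 57.7% on 26 reads. All 9 CpGs read in both libraries were lower in Ezh2 -/-, with 1 to 5 reads each there.

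A split of the 46 windows at 30 to 70% in WT by an imprinted start within 50 kb was made after these values were seen. It found 5 windows, near Plagl1, Grb10 (2), Gnas and Commd1 with Zrsr1, and all 5 were lower in Ezh2 -/-, 3 of them called. Their summed level was 26.6% in Eed -/- (22.4 to 31.3%, 372 reads) and 3.45% in Ezh2 -/- (2.10 to 5.61%, 435 reads), with 31.9% in Ring1B -/- and 37.3% in WT. The other 41 windows read 38.5% in Eed -/- and 28.9% in Ezh2 -/-, with 19 lower and 21 higher, and 5 of them were called lower and 2 higher. The window at the starts of Commd1 and the imprinted Zrsr1 was low in both mutants, at 9.41% in Eed -/- and 2.04% in Ezh2 -/-, against 28.4% in Ring1B -/- and 35.7% in WT. Because the split was chosen for its result, it is given as a description.

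Of the imprinted list as a whole, 14 windows at the starts of 11 genes were measured, and 1 was called, that of Plagl1, beside 0.342% of all windows. At an unadjusted p under 0.05 there were 2 (Fisher's exact test), both lower in Ezh2 -/-, beside 694 of 7594 over all windows. These were the called Plagl1 window again and that of Commd1 with Zrsr1, and such counts say little of the list. Apart from Plagl1, the other 13 windows were under 10% in both libraries. The median difference of the list was 0, as over all windows. Peg12 read 0.870% in Eed -/- and 2.80% in Ezh2 -/- in its deeper window, and Zdbf2 read 1.08% and 3.19%.

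The hexamer TGCCGC, bound by the imprint-protecting protein ZFP57 when methylated, was searched on both strands. It occurred in 11.6% of 32851 RefSeq promoters of 300 bases, and in the spelled letters of 35.1% of all windows, 6 of the 20 called lower and 1 of the 6 called higher. The Plagl1 sequence above ends in it, and the second Grb10 window held it. The letters spelled for the first Grb10, Commd1 and Gnas windows did not.

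The smallest p of all windows belonged to the window with the start of Clcn4, which encodes a chloride and proton exchanger of endosomes. In Eed -/- 288 of 488 reads were methylated (59.0%, 54.6 to 63.3%), and in Ezh2 -/- 13 of 94 (13.8%, 8.26 to 22.2%). The difference was -45.2 points (-52.2 to -35.7) with an adjusted p of 9.91e-13 (Fisher's exact test). Ring1B -/- read 49.7% on 441 reads, near Eed -/-, whereas WT read 1.19% and Fbxl10 T/T 1.20%. Depth also differed here, with 488 reads in Eed -/- and 94 in Ezh2 -/-. Over all CpGs outside CCGG the 2 libraries held 1106253 and 989848 reads. The cause of this imbalance was not tested. The level of Ezh2 -/- was not even along the window. At 4 CpGs with 2 reads each, every read of Ezh2 -/- was methylated, and at the CpGs at positions 7252368 and 7252370 it had 0 of 17 reads methylated against 58 and 52 of 81 in Eed -/-.

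Other gene starts showed methylation in Eed -/- and nearly none in Ezh2 -/-. In the window with the start of Atf4, a transcription factor of the integrated stress response, Eed -/- read 31.4% (16 of 51 reads) and Ezh2 -/- 0% (0 of 76). WT read 1.24%, Ring1B -/- 5.41% and Fbxl10 T/T 0.167%, so Eed -/- stood above the other libraries. All 16 methylated reads of Eed -/- lay at 5 CpGs in a stretch of 47 bases, with 6 to 9 reads at each. Few DNA molecules therefore stand behind the Atf4 window. In the window with the start of Pou4f1, a POU-domain factor of sensory neurons, Eed -/- read 32.3% (10 of 31) and Ezh2 -/- 1.75% (1 of 57), with WT at 3.20%, Ring1B -/- at 6.38% and Fbxl10 T/T at 44.0%. Of the 10 methylated Pou4f1 reads of Eed -/-, 9 lay at CpGs with 4 reads each, so few DNA molecules stand behind this window too. In 2-kb windows the Pou4f1 call was lost, at -14.2 points and an adjusted p of 0.224 (Fisher's exact test). In the window with the start of Zfp629, a zinc finger gene named after its values were seen, Eed -/- read 29.3% and Ezh2 -/- 6.12%, with Ring1B -/- at 25.2% and WT at 5.32%.

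The largest difference lay 10.3 kb downstream of the nearest placed start, that of Polrmt, the mitochondrial RNA polymerase. Eed -/- read 64.1% (41 of 64 reads) and Ezh2 -/- 7.89% (3 of 38), a difference of -56.2 points (-68.0 to -38.4). The adjusted p was 1.21e-05 (Fisher's exact test). Ring1B -/- read 68.3% and Fbxl10 T/T 88.0%, while WT, at 8.84%, was near Ezh2 -/-. The window summed 25 CpGs in Eed -/- and 9 in Ezh2 -/-, so part of the difference compares unlike CpGs. All 7 CpGs read in both libraries were lower in Ezh2 -/-. On those 7 the difference was -47.8 points and no longer the largest, with -48.3 on the shared CpGs of the Gm51913 window. Other called windows also summed unlike CpGs, such as those of Pou4f1 (11 in Eed -/- and 24 in Ezh2 -/-) and Tmem267 (18 and 36).

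A window 0.838 kb from the placed start of Gm51913 read 54.5% in Eed -/- and 9.76% in Ezh2 -/-. One 40.5 kb from that of Cog4, a Golgi tethering subunit, read 68.1% and 31.6%, and one 13.5 kb from that of Trabd 33.3% and 0%. The Cog4 window had the adjusted p closest to the threshold, at 0.0479 (Fisher's exact test).

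A pair of the 12 largest had no placed start within 50 kb. On chromosome 4 (108453001 to 108454000) Eed -/- read 36.4% and Ezh2 -/- 0%, with WT at 2.92%, and in 2-kb windows the difference was -9.22 points, under the threshold. On chromosome 7 (89920001 to 89921000) Eed -/- read 74.6% (229 of 307 reads) and Ezh2 -/- 38.3% (64 of 167), with an adjusted p of 7.43e-11 (Fisher's exact test), WT at 69.8% and Ring1B -/- at 76.8%. That window was split. At positions 89920512 to 89920541 the order turned, with 34.4% in Eed -/- and 54.8% in Ezh2 -/-. As a mean over CpGs with at least 5 reads, the difference of the whole window was -13.1 points, under the threshold.

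The remaining called windows lower in Ezh2 -/- were outside the naming rule and are named here after their values were seen. Apart from those of Grb10 and Zfp629, the nearest placed starts began with Gm2694 (28.4% in Eed -/- and 1.25% in Ezh2 -/-). All 25 methylated reads of Eed -/- there lay at 5 CpGs in a stretch of 48 bases, with 5 of 10 reads methylated at each. Few DNA molecules therefore stand behind the Gm2694 window. Next were the transcription factor gene Zbtb7a, 17.0 kb away (51.1% and 24.1%), and the mRNA decay gene Patl1, 42.9 kb away (36.1% and 9.46%). A window 26.8 kb from the start of the heparan sulphatase gene Sulf2 read 87.8% (202 of 230 reads) and 62% (31 of 50). Depth was uneven at Patl1 as well, with 230 reads in Eed -/- and 74 in Ezh2 -/-. Ring1B -/- held 273 reads in the Sulf2 window and 241 in that of Patl1. The cause of the uneven depth was not tested. The window 0.196 kb from the start of the glucosyltransferase gene B3glct read 21.7% and 1.28%. All 10 methylated reads of Eed -/- there lay at 8 CpGs with 3 or 5 reads each, so few DNA molecules stand behind it. A window of chromosome 6 with no placed start (89645001 to 89646000) read 66.1% and 42.4%. In that last window WT read 95.3% and Ring1B -/- 78.7%.

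The 6 windows higher in Ezh2 -/- were led in p by that of Tmem267, a transmembrane protein gene that shares the window with the start of 3110070M22Rik. Eed -/- read 2.67% (2 of 75 reads, 0.734 to 9.21%) and Ezh2 -/- 42.9% (201 of 468, 38.5 to 47.5%). The adjusted p was 8.42e-11 (Fisher's exact test). WT read 55.0%, Fbxl10 T/T 25.8% and Ring1B -/- 14.8%, so Eed -/- was the lowest of the 5. Of 18 CpGs read in both libraries, 17 were higher in Ezh2 -/-. Depth was uneven in this window too, at 75 reads in Eed -/- and 81 in Ring1B -/- against 468 in Ezh2 -/-. The cause of that was not tested.

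Sema6b, which encodes a semaphorin, had the largest difference of this direction, in a window 8.2 kb upstream of its start. Eed -/- read 12.5% (5 of 40) and Ezh2 -/- 56.3% (18 of 32), with WT at 53.1% and Ring1B -/- at 27.5%. The window with the start of Rnf213, a large ubiquitin ligase, read 3.92% (2 of 51) in Eed -/- and 40% (12 of 30) in Ezh2 -/-, with WT at 20.4%. The window 9.0 kb downstream of Fendrr, a long noncoding RNA of the lateral mesoderm, read 8.82% and 43.9%. The window beside the start of Tmc6 read 0% and 21.4%, and one of chromosome 8 with no placed start (12386001 to 12387000) 3.75% and 40.7%.

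**Figure D3:**
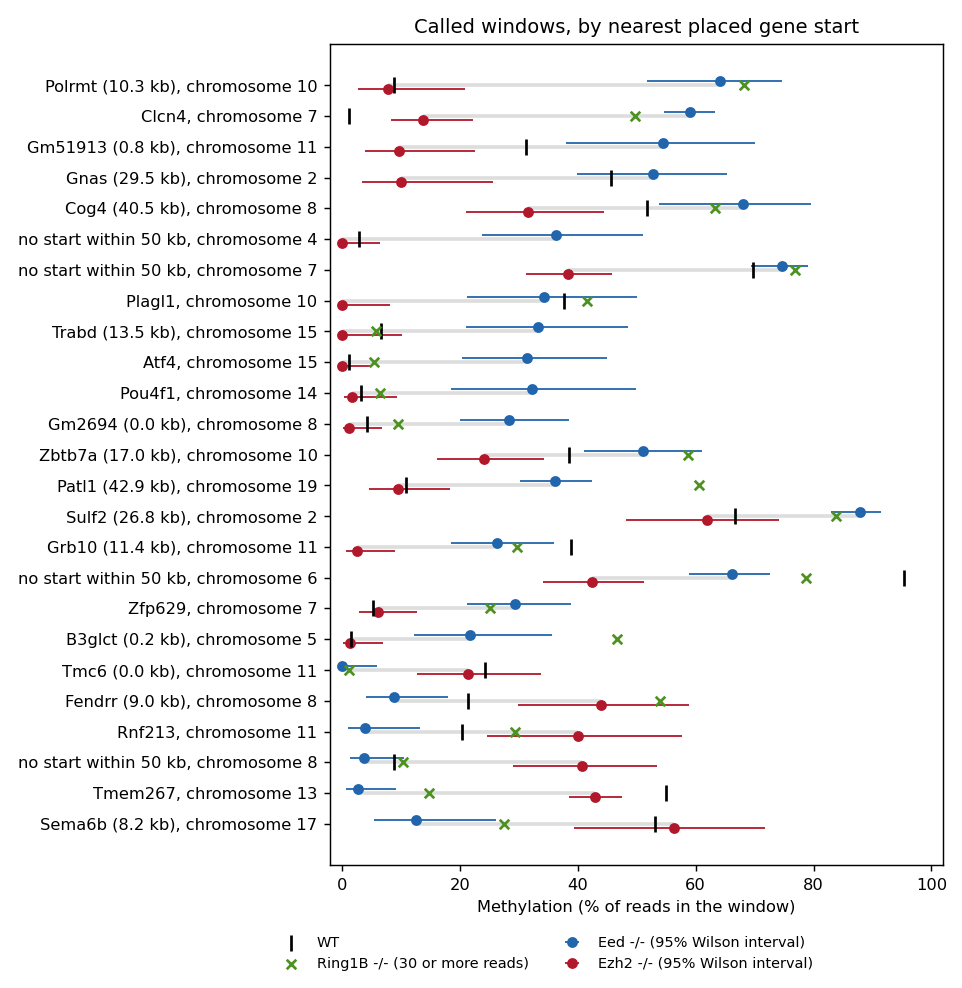
Methylation (% of reads) in 25 of the 26 called windows, named by the nearest placed gene start with its distance; circles with 95% Wilson intervals are Eed -/- (blue) and Ezh2 -/- (red), black ticks WT and green crosses Ring1B -/- where it had 30 reads. The lower 6 are the windows higher in Ezh2 -/-, and in those above them most green crosses lie on the side of Eed -/-.

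The other libraries differed in which mutant they were nearer to. In the 20 windows lower in Ezh2 -/-, WT was nearer to Eed -/- in 8 and nearer to Ezh2 -/- in 12. Ring1B -/- had 30 reads in 17 of them and was nearer to Eed -/- in 13 and to Ezh2 -/- in 4. In the 6 windows higher in Ezh2 -/-, WT was nearer to each mutant in 3, and Ring1B -/- was nearer to Eed -/- in 4. Fbxl10 T/T was nearer to Eed -/- in 15 of the 20 windows, above both mutants in 14 of them, and nearer to Ezh2 -/- in 5 of the 6. These windows were chosen by the 2 mutants' levels, so the counts are a description.

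**Figure D4:**
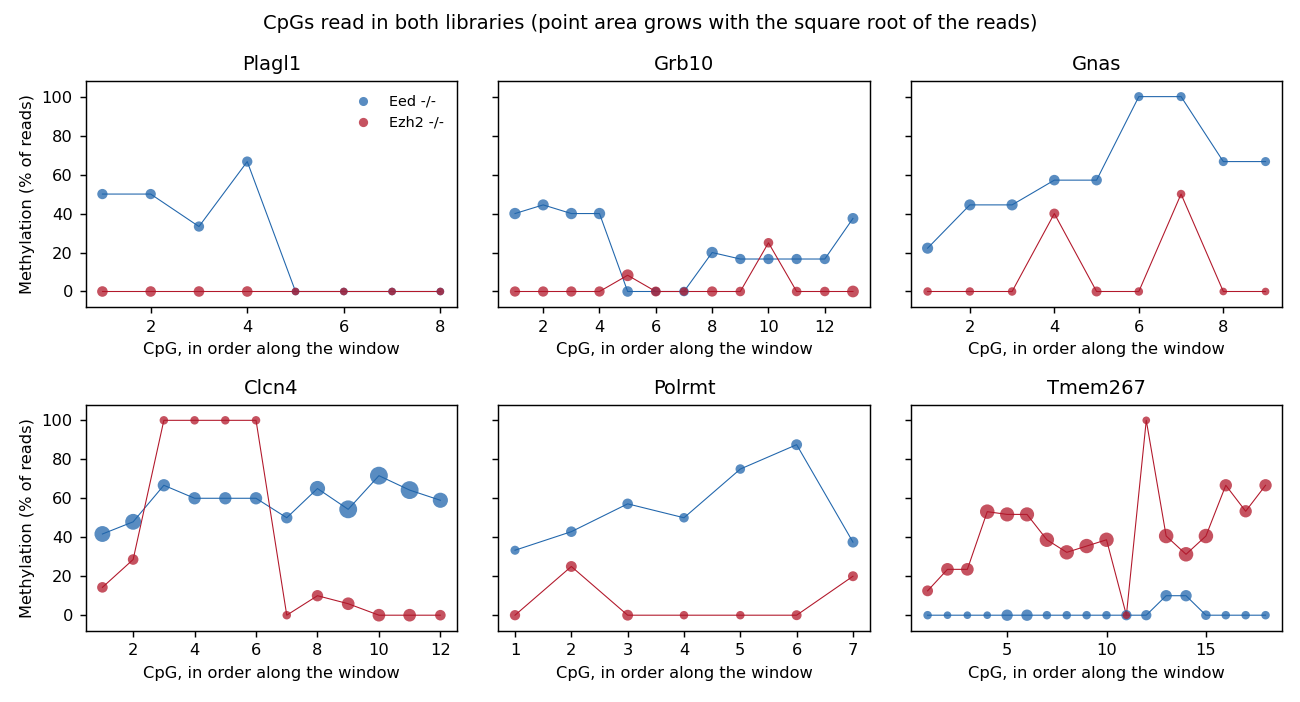
Methylation (% of reads) at each CpG read in both libraries, in order along 6 called windows, in Eed -/- (blue) and Ezh2 -/- (red); larger points have more reads. Eed -/- is higher at all 7 Polrmt and all 9 Gnas CpGs, whereas in Clcn4 the 4 CpGs where Ezh2 -/- is at 100% have 2 reads each.

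Single CpGs were tested where depth allowed, on reads that the windows also use. Of 5550 CpGs with at least 10 reads in both libraries, 6 (0.108%) passed Fisher's exact test at an adjusted p below 0.05 and a difference of 25 points or more, all lower in Ezh2 -/-. At an unadjusted p under 0.05 there were 118, of which 92 were lower and 26 higher. The 6 fell in 3 places. Clcn4 held 2 and the chromosome 7 window 3, with 66 to 71 of 85 reads methylated in Eed -/- against 10 of 37 to 12 of 36 in Ezh2 -/-. The other, at position 72641120 of chromosome 15, had 13 of 13 reads methylated in Eed -/- and 0 of 10 in Ezh2 -/-. The CpGs in Clcn4 and the chromosome 7 window repeat reads of called windows, so they are not separate evidence of direction. In the Tmem267 window, no CpG read in both libraries had more than 10 reads in Eed -/-. Those with 10 were tested and not called, with 0 or 1 read methylated against 10 of 32 to 15 of 29 in Ezh2 -/-.

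A list of developmental genes known as Polycomb targets had no called window. Of 59 windows at the starts of 44 developmental Polycomb targets (Hox, Pax, Wnt and other regulators), 0 were called in either direction (Fisher's exact test) and 10 had an unadjusted p under 0.05, 4 lower and 6 higher in Ezh2 -/-, beside the 694 of 7594 over all windows. With 0.342% of all windows called, a count of 0 among 59 says little of this list. The list was taken by the beginning of each symbol, which also brought in Sox12, Sox13, Gsc2 and Cdkn2aip, and it does not hold Pou4f1, a developmental factor whose window was called. Their median difference was 0.034 points, with a range from -12.5 to 15.1, and 46 of the 59 were under 10% in both libraries. Of those 10, named after their values were seen, Barhl1, a neural homeobox factor, read 1.14% in Eed -/- and 13.8% in Ezh2 -/-, with WT at 12.7% and an adjusted p of 0.108 (Fisher's exact test). Foxa2, an endoderm factor, read 0% and 14.3%, and Hoxd9 3.41% and 17.2%, whereas Zic5 was the other way round, at 9.52% and 1.45%. Wnt4, a secreted signal, read 2.70% in Eed -/- and 0.469% in Ezh2 -/- on over 200 reads each. Nkx6-1, a homeobox factor of the pancreas and spinal cord, read 0% and 1.37% in its deeper window, Nkx6-2 read 5.97% and 8.27% in one window and 5.68% and 1.63% in the next, and Sox13 read 3.28% and 1.08%.

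The measured genes of the complexes themselves were low in both mutants, like most windows. All 23 windows of 16 Polycomb genes were under 10% in both, beside 89.7% of all windows. Among them 0 were called and 0 had an unadjusted p under 0.05 (Fisher's exact test), beside 0.342% and 694 of 7594 over all windows. Such counts say little of this list, and Eed itself had no measured window. The windows of the Ezh2 start, named after their values were seen, were at 0% in both mutants, the deeper one on 105 reads in Eed -/- and 53 in Ezh2 -/-. Jarid2, a PRC2 cofactor, read 4.98% in Eed -/- and 2.22% in Ezh2 -/-, Bmi1 of PRC1 2.27% and 5.42%, Rnf2, which encodes Ring1B, 4.38% and 8.36%, and Lcor 5.39% and 6.10%. The 8 windows of the DNA methylation machinery were likewise under 10%, with 0 called and 0 at an unadjusted p under 0.05 (Fisher's exact test). These counts stand beside the same shares over all windows. In the deeper Dnmt3a window Eed -/- read 1.31% and Ezh2 -/- 2.80%. Dnmt3b, the other de novo methyltransferase, read 0.649% and 1.14%, and Ehmt2, a histone H3 lysine 9 methyltransferase, 3.29% and 1.35%. Hells, a chromatin remodeller, was at 0% in both.

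Germline genes, which ES cells can silence by DNA methylation, had 4 windows, with 0 called and 1 at an unadjusted p under 0.05 (Fisher's exact test). Over all windows, 0.342% were called and 694 of 7594 had such a p. All 4 were lower in Ezh2 -/-, beside 3509 of 7594 over all windows, and so few windows say little of the list. Sycp1, of the synaptonemal complex, read 66.7% in Eed -/- (48 reads) and 31.4% in Ezh2 -/- (35 reads). The difference of -35.2 points (-52.6 to -13.5) did not pass, at an adjusted p of 0.166 (Fisher's exact test), and WT read 74.1%. The RNA-binding gene Dazl read 7.84% and 0%, the RNA helicase gene Ddx4 13.3% and 11.1%, and Tdrd5 2.04% and 1.42%. The 4 windows of the ES cell genes Sox2, Klf4 and Klf2 were under 10% in both libraries, and the single window of a feeder-cell gene, Twist2, read 3.92% and 7.5%. With 0 called and 0 at an unadjusted p under 0.05 in these 5 windows (Fisher's exact test), promoter methylation gives no further check of the labelled cell type.

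Ring1B -/- has the same culture label, and its comparisons share a library with the one above. Ring1B -/- against Eed -/- had 72 called windows of 7811 (0.922%), 68 of them higher in Ring1B -/-. Ring1B -/- against Ezh2 -/- had 84 of 7398 (1.14%), 78 of them higher in Ring1B -/-. Each PRC2 mutant thus had more called windows against Ring1B -/- than the 26 between the 2 PRC2 mutants, with no test of that difference.

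Read depth per chromosome differed between the 2 libraries. Chromosome 6 held 3.59% of the reads at CpGs outside CCGG in Ezh2 -/- and 5.68% in Eed -/-, against 4.27% in WT and 4.12% in Ring1B -/-. Chromosome 8 held 6.17% in Ezh2 -/-, 7.62% in Eed -/-, 8.10% in Ring1B -/- and 5.32% in WT. Chromosomes 1, 9, 11, 15 and X held between 1.20 and 1.23 times the share of Eed -/- in Ezh2 -/-. Called windows were 4 of 494 tested on chromosome 8, 5 of 697 on chromosome 11 and 1 of 309 on chromosome 6, beside 0.342% over all chromosomes. Whether chromosome number differed, and any part of it in the called windows, was not tested.

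**Figure D5:**
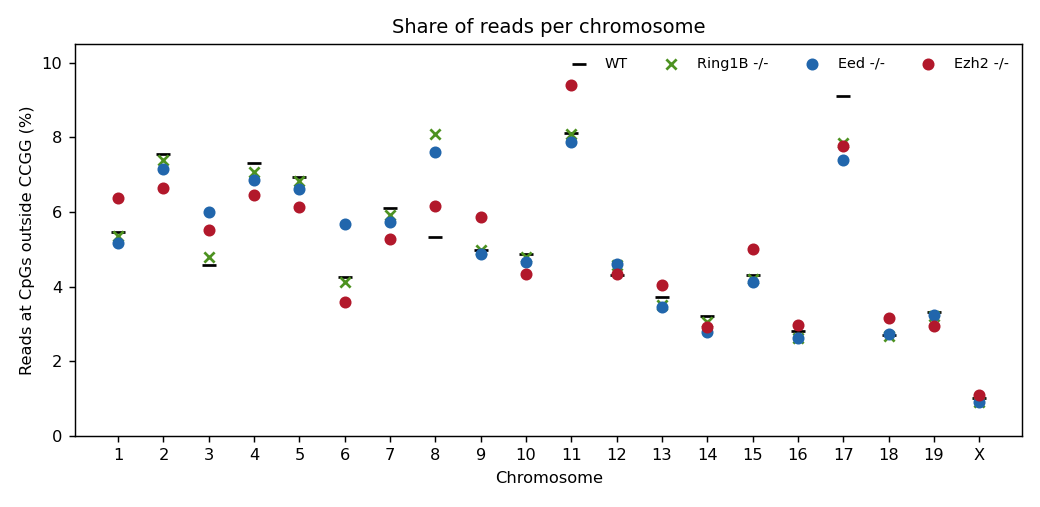
Percentage of reads at CpGs outside CCGG on each chromosome, in WT (black), Ring1B -/- (green), Eed -/- (blue) and Ezh2 -/- (red). Eed -/- and Ezh2 -/- differ most at chromosome 6 (5.68% and 3.59%), and chromosomes 1, 9, 11 and 15 are higher in Ezh2 -/- than in the other 3 libraries.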

How the data were processed

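The authors deposited 1 table per library, with 1 row per cytosine, per the file headers. Per the submitters' processing notes, BSMAP 2.74 and build mm9 were used, and trimming and removal of duplicates are not given in the sources used here. Deposited raw counts give the reads that show C and those that show C or T. The deposited expected counts correct the latter for C-to-T variants seen on the opposite strand, and the deposited fraction is the reads showing C over them. Raw counts were used here, summed over CpGs outside CCGG in 1-kb windows with at least 5 CpGs and 30 reads in both libraries, on 19 autosomes and X. Eed -/- held 1106253 such reads and Ezh2 -/- 989848, with a median of 3 reads per CpG, so single CpGs were rarely testable. Fisher's exact test (scipy 1.17.1) was two-sided, with Benjamini-Hochberg adjustment (statsmodels 0.14.6), and was run on simulated data. The simulation drew reads independently at each CpG, so it does not measure the error from a read that counts at several CpGs.

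Genes were tied to windows without converting coordinates. RefSeq promoters (GRCm38.p6) were matched exactly to the letters that the 5-base contexts of the tables spell, with at least 30 letters equal. This placed 10821 of 32851 entries (9578 of 27025 symbols), so the nearest placed start need not be the nearest gene, and each window at a list gene lies within 1000 bases of its start. Named were the 12 called windows with the largest difference in each direction, called windows tied to a listed gene, and the 4 members of each list with the most reads in both libraries. The members, lists and rule were chosen with earlier results of these data known.
Alternatives varied the read and CpG minimums, the CCGG filter, the way a level is formed, the window length and the thresholds. Of the called windows, 1 is counted but not reported here.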

Additional observations from a re-analysis of the deposited data

Results flagged for a closer look

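Cytosines outside CpG lie outside the comparison of windows, and both PRC2 mutants read higher there than WT. The level was 2.83% in Eed -/- (2.81 to 2.84%) and 2.10% in Ezh2 -/- (2.09 to 2.12%), against 1.02% in WT (1.016 to 1.020%). Cytosines followed by A read 2.93% in Eed -/-, 2.07% in Ezh2 -/- and 1.85% in WT, and cytosines followed by C read 2.84%, 2.22% and 0.718%. Whether this is methylation or incomplete conversion was not tested.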

How the results depend on the processing

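Of the 26 called windows, none turned direction in any of the 12 alternatives in which it was still measured. Where only the read or CpG minimum, the chromosomes or the median changed, the counts of a window stayed the same, so it could not turn. The rest largely reuse the same reads. With at least 60 reads 17 of the 26 were not measured, and as a mean over CpGs 14 were not. On only the CpGs read in both libraries 4 were not, those of Plagl1, Gnas, Pou4f1 and Rnf213. The count of called CpGs stayed between 5 and 6. The count of calls was 9 with at least 60 reads (8 lower and 1 higher in Ezh2 -/-), 16 with at least 10 CpGs (12 lower), 58 with CpGs inside CCGG kept (44 lower and 14 higher), and 10 as a mean over CpGs with at least 5 reads (8 lower and 2 higher). It was 46 at a difference of 10 points (33 lower and 13 higher), 17 at 30 points (12 lower), and 15 at an adjusted p under 0.01 (12 lower and 3 higher). With at least 20 reads, 10 were higher. With Ring1B -/- in place of Ezh2 -/- it was 72, and in place of Eed -/- 84, alternatives chosen after the data were seen. The difference of the summed level, -0.607 points, was -0.809 with at least 3 CpGs, -0.453 with at least 10, -0.779 with CCGG kept, -0.409 with reads per CpG capped and -0.750 in 2-kb windows. As a mean over CpGs the difference of mean window levels was -0.245, against -0.281 without that setting, while the summed difference of those windows was -0.767. The cause was not tested. With CCGG kept, calls were lost on the adjusted p for B3glct (-20.8 points), Cog4 (-26.7), Fendrr (26.7), Gm51913 (-30.5) and Rnf213 (23.9), and also on size for Tmc6 (15.9). In 2-kb windows they were lost for Gm2694 (-16.1), Pou4f1 (-14.2) and the chromosome 4 window (-9.22). As a mean over CpGs they were lost on size for Patl1 (-16.5) and the chromosome 7 window (-13.1), and on the adjusted p for Zfp629 (-36.7). The Cog4 call was also lost with at least 20 reads and with the cap, at -36.5 points in both. Subtracting the median difference, which is 0, changed no call, and it gives no summed level. No paired analysis was possible because each genotype has 1 library. Depth limits the result, since the median called window held 62.5 reads in Eed -/- and 57 in Ezh2 -/-.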
